A study of Mus musculus with 17 samples.

Results

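The genes described here are P2ry12, P2ry13, P2ry6, P2rx4, P2rx7 and Entpd1, the nucleotide receptors most often followed in microglia together with the main surface enzyme that removes their ligands. They were taken by symbol from a table of 13501 genes, and all 6 were found there. The table holds bulk RNA sequencing of brain cells from 17 mouse libraries in 5 groups, and the cells were living CD45+CD11b+ cells, a gate that takes microglia and other myeloid cells. Normal microglia (3 libraries) came from wildtype mice without 5xFAD. The 5xFAD mouse carries mutant human transgenes that make amyloid-beta from a neuronal promoter and serves as a model of amyloid plaque disease, not of the whole of Alzheimer's disease. Microglia of untreated 5xFAD mice were either Trem2-wildtype or Trem2-knockout, with 3 libraries of each, where Trem2 encodes a lipid-sensing receptor of microglia. Circulation-derived myeloid cells were taken from brains of Trem2-knockout 5xFAD mice transplanted with bone marrow and treated with PLX5622, which blocks CSF1R and so removes microglia. Their bone marrow donors were wild type for Trem2 (4 libraries) or lacked it (4 libraries), so that every host of transplanted cells lacked Trem2 and cell origin and treatment always changed together. The labels give neither ages nor the number of animals behind a library, and p-values therefore measure only the spread between these libraries.

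ATP and ADP leak or are released from damaged and active cells, and microglia sense them through ATP-gated cation channels (P2X) and G protein-coupled receptors (P2Y). P2Y12 and P2Y13 respond to ADP and couple to Gi, and P2Y12 steers microglial processes toward injury and is a classic surface marker of resting microglia. P2Y6 responds to UDP and is known for triggering phagocytosis. P2X4 opens at low ATP and is known from microglia after nerve injury, while P2X7 needs high ATP and feeds the NLRP3 inflammasome and release of IL-1β. Entpd1 encodes CD39, which cuts ATP and ADP to AMP, and CD73 (Nt5e) turns AMP into adenosine.

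The genes lie on 4 chromosomes (GENCODE vM21, build GRCm38), and 4 of them form neighbouring pairs. P2ry13 (chr3:59207892-59210882) and P2ry12 (chr3:59216272-59262871) are both on the minus strand with 5.4 kb between them. P2rx7 (chr5:122643911-122691432) and P2rx4 (chr5:122707544-122729738) are both on the plus strand with 16.1 kb between them. P2ry6 is at chr7:100937630-100974649 on the minus strand, and Entpd1 is at chr19:40612366-40741602 on the plus strand. The promoters of the paired genes are shown because the 2 genes of each pair are compared with each other further on. Each is the 250 bases before the RefSeq transcript start (GRCm38.p6), printed 5′ to 3′ on the gene's own strand, with matches to the searched motifs in capitals. The windows are chr3:59210883-59211132 for P2ry13, chr3:59262986-59263235 for P2ry12, chr5:122643677-122643926 for P2rx7 and chr5:122707294-122707543 for P2rx4. P2rx7 has another RefSeq start whose window is not printed.
P2ry13: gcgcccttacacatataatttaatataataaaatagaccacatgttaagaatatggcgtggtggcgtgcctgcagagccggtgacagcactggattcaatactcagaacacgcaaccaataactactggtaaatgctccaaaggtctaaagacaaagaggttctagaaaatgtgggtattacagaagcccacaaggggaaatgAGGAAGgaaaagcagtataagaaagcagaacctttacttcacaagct
P2ry12: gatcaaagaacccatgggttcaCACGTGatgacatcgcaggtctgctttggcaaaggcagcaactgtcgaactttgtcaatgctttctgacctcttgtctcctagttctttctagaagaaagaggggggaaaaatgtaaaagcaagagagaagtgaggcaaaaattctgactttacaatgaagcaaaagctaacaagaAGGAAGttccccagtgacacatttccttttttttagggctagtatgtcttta
P2rx7: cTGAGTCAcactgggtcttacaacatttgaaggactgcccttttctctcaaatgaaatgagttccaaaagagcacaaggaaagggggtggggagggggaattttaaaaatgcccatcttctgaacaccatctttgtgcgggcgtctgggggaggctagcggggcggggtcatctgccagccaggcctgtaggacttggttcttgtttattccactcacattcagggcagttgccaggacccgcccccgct
P2rx4: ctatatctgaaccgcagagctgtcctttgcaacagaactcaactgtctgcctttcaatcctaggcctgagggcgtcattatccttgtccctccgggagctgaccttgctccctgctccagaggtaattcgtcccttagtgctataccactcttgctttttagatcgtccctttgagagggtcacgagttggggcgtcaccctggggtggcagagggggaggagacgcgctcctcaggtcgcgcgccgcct
The motifs, searched on both strands, were the ETS core AGGAAG bound by factors such as PU.1, AP-1 (TGANTCA), the E-box CACGTG of TFE factors, SMAD (GTCTAGAC), CRE (TGACGTCA), and the motifs of MEF2 and IRF factors. P2ry13 and P2ry12 both held AGGAAG close to the start, 47 to 42 bases before it in P2ry13 and 52 to 47 bases in P2ry12. The same letters occurred in 29.5% of 32851 RefSeq promoter windows of this length. P2ry12 also held CACGTG 228 to 223 bases before its start (6.02% of windows), and P2rx7 held TGANTCA 249 to 243 bases before its start (6.75%). The P2rx4 window held none of the 7. These are matches of letters, and binding was not measured in these libraries.

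The values are read counts that the authors scaled by 1 size factor per library, called normalized counts here. Over the 13501 genes a library held 16044078 to 30606395 reads. Each value of the 6 genes rested on 2395 to 71237 reads, a counting error of 2.04 to 0.375% of the value. Libraries carry the sample numbers of the table's columns (S20 to S36). Trem2 itself was at 33683 ± 3323 normalized counts (SD, n = 3) in normal microglia, 51275 ± 1868 (SD, n = 3) in wild-type 5xFAD microglia and 45487 ± 8857 (SD, n = 4) in wild-type donor cells. It was at 5282 ± 824 (SD, n = 3) and 4499 ± 601 (SD, n = 4) in knockout microglia and knockout donor cells. All 12 genes of a microglia marker list were at 10 or more in every library, with a summed level of 914338 to 1357091 in the 9 microglia libraries and 599993 to 755145 in the 8 transplanted ones. Sall1, a transcription factor of resident microglia, was at 8603 ± 189 (SD, n = 3) in normal microglia against 146 ± 70.3 and 187 ± 104 (SD, n = 4 each) in wild-type and knockout donor cells. Over the whole list, the median log2 difference of these donor cells from normal microglia was -1.25 and -1.02. By the limma test described below, 10 of the 12 genes were lower and none higher in each (30.4 and 28.6% of all genes were called). Against wild-type 5xFAD microglia, wild-type donor cells had 9 lower and 1 higher (median -0.80, 28.2% of all genes). Markers of brain macrophages of haematopoietic origin summed to 330657 to 631923 in transplanted libraries and 47768 to 81436 in microglia. Most of these sums was Lyz2 (229882 to 518934 and 29531 to 64897). Of the 11 genes, 8 were higher and 1 lower in wild-type donor cells than in wild-type 5xFAD microglia (median 1.99, 28.2% of all genes called). In knockout donor cells against knockout microglia 8 were higher and 2 lower (median 2.23, 25.4% of all genes called). Within groups, 3 pairs of libraries were nearer to each other than the other pairs. Their read counts differed by a chi-square over degrees of freedom of 6.11 (S22, S23), 9.61 (S25, S27) and 4.92 (S30, S31), against 13.1 to 130 elsewhere, and the labels do not say whether such a pair shares an animal.

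Among the 6 genes the main contrast was between transplanted cells and microglia, and it went in both directions. P2ry12, P2ry13 and Entpd1 were lower in transplanted cells and P2rx4 was higher, for both donor genotypes. Together the 6 genes took 0.686 to 0.821% of the reads over all 13501 genes in normal microglia. In 5xFAD microglia the share was 0.550 to 0.583% (wild-type) and 0.649 to 0.762% (knockout). The share was 0.230 to 0.300% in wild-type donor cells and 0.337 to 0.392% in knockout donor cells, with no overlap between microglia and transplanted libraries. In bulk libraries such as these, fewer cells of a type and less RNA per cell cannot be told apart. A gene was called when its Benjamini-Hochberg adjusted p from limma, over the 12074 genes tested, was under 0.05, and all tests were two-sided. All 6 genes passed the filter on low values, and differences below are on the log2(normalized count + 1) scale, each with its standard error (SE) from limma.

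Wild-type donor cells against wild-type 5xFAD microglia gave 1 of the 6 genes higher and 3 lower, where 28.2% of all tested genes were called. Knockout donor cells against knockout 5xFAD microglia gave 2 higher and 3 lower (25.4% of all genes), and wild-type donor cells against knockout 5xFAD microglia also gave 2 higher and 3 lower (35.1%). Against normal microglia, each kind of donor cell had 1 higher and 3 lower, with 30.4% of genes called for wild-type and 28.6% for knockout donors. Knockout donor cells against wild-type 5xFAD microglia also gave 1 higher and 3 lower (26.5%). These comparisons share groups with each other and are not independent. Comparisons of Trem2 or of disease touched fewer of the 6. Wild-type against knockout donor cells gave 3 lower and none higher (6.74% of all genes were called, 2.99% lower), wild-type against knockout 5xFAD microglia gave 1 higher (5.09% called, 2.59% higher), and wild-type 5xFAD against normal microglia gave 1 lower (3.78% called, 0.952% lower). Knockout 5xFAD against normal microglia gave 0 (3.91%). At an unadjusted limma p under 0.05 there were 4 of the 6 genes, and DESeq2 called 2. The shares of all genes at these 2 settings are not given, so these counts cannot be read as particular to the 6. Both comparisons with knockout microglia turn on S26, and without it 5 of the 6 were called for Trem2 in microglia and 3 against normal microglia. Of the other purinergic genes described below, 19 and 27 were then called, against 6 and 1 in the main fit, so the gain was not particular to the 6. Shares of all genes given here are from the main fit only. Fits without S26, here and below, leave S25 and S27 as the knockout microglia, and whether this near pair shares an animal is not stated. The median difference of the 6 genes was -0.55 for wild-type donor cells against wild-type microglia, where the median of all tested genes was -0.026. It had the other sign for knockout donor cells against knockout microglia, 0.080 against -0.022 over all genes. It was -0.23 for wild-type donor cells against knockout microglia (-0.011 over all genes) and -0.31 for wild-type against knockout donor cells (0.046).

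**Figure D1:**
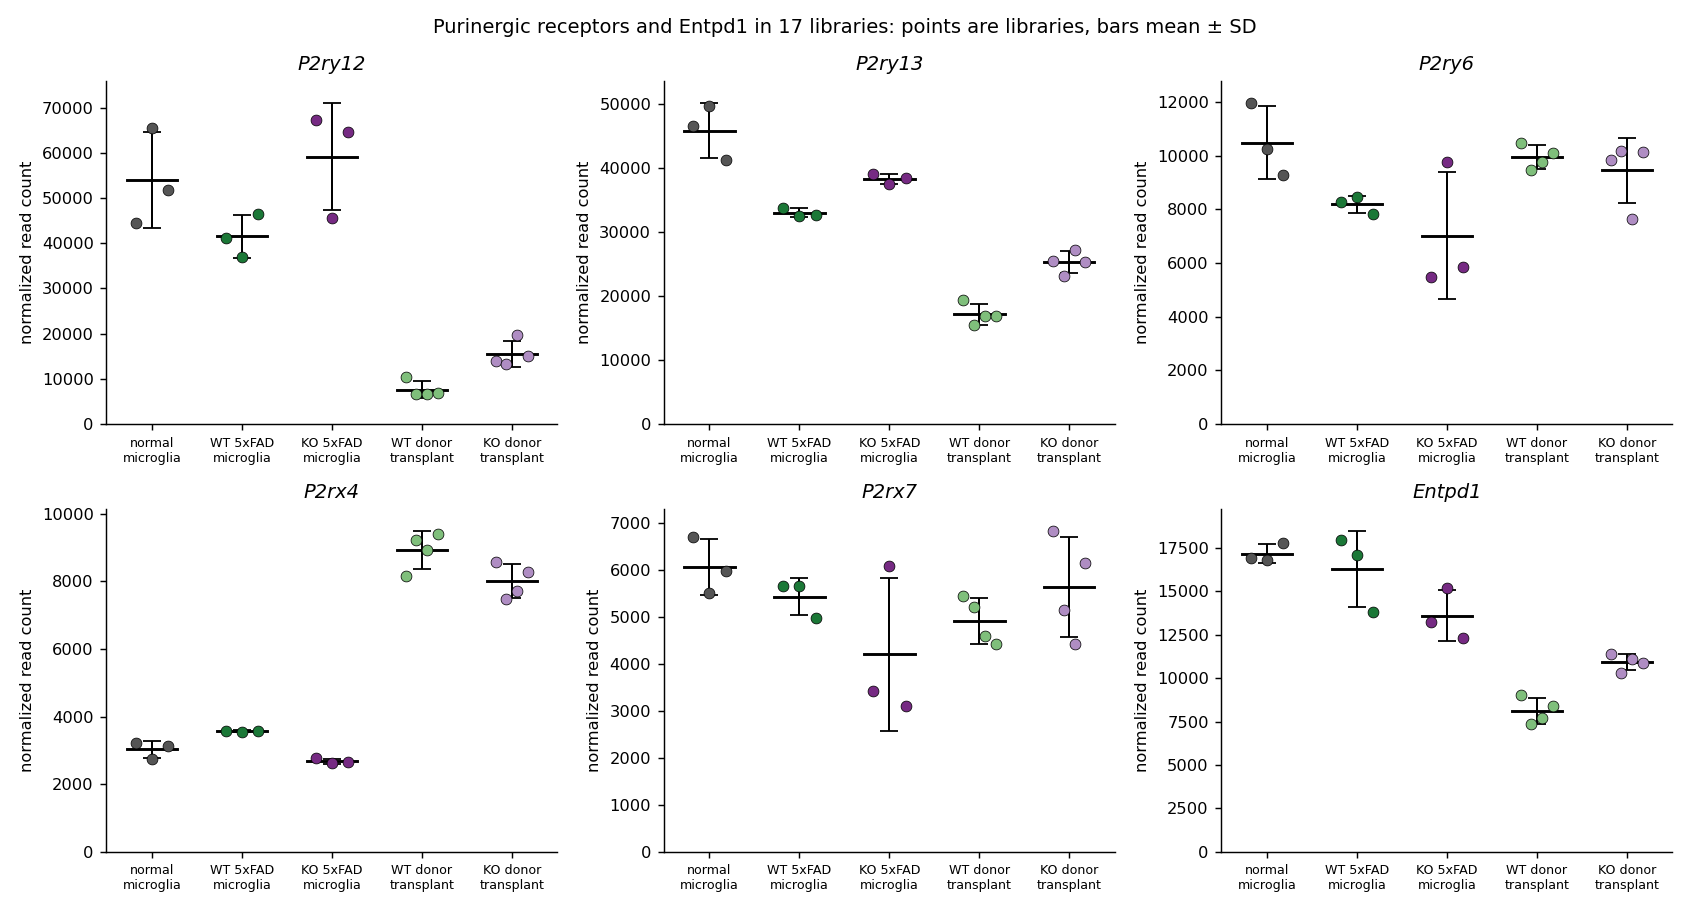
Normalized read count (vertical axis) of P2ry12, P2ry13, P2ry6, P2rx4, P2rx7 and Entpd1 in each of 17 libraries by group; points are libraries and bars are mean ± SD (n = 3 in each microglia group and 4 in each donor group). P2ry12 lies between 6576 and 19783 in transplanted cells and between 37026 and 67152 in microglia, and P2rx4 lies between 7491 and 9406 in transplanted cells and between 2621 and 3584 in microglia.

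P2ry12, the ADP receptor of process extension, was high in every microglia library and low in every transplanted one. Normal microglia held 44537, 65571 and 51732 normalized counts (S20, S21, S36). Wild-type 5xFAD microglia held 41038, 37026 and 46385 (S22 to S24), and knockout 5xFAD microglia held 67152, 45584 and 64608 (S25 to S27). The 3 microglia groups ran into each other, with S26 well below the other knockout microglia libraries. Wild-type donor cells held 10483, 6576, 6580 and 6899 (S28 to S31), and knockout donor cells held 13970, 13307, 19783 and 14994 (S32 to S35). No wild-type donor library reached the lowest knockout donor library, and no knockout donor library reached the lowest microglia library.

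In group means, P2ry12 was 5.43-fold higher in wild-type 5xFAD microglia (41483 ± 4696, SD, n = 3) than in wild-type donor cells (7634 ± 1905, SD, n = 4), a log2 difference of -2.47 (SE 0.19, limma adjusted p = 1.62e-08). Between knockout 5xFAD microglia (59115 ± 11786, SD, n = 3) and knockout donor cells (15513 ± 2930, SD, n = 4) the fold was 3.81, a log2 difference of -1.93 (SE 0.19, limma adjusted p = 5.56e-07). Against knockout microglia, which have the Trem2 genotype of the hosts, wild-type donor cells differed by -2.96 (SE 0.19, limma adjusted p = 1.97e-09). Thus P2ry12 fell in transplanted cells in all 3 of these comparisons. In the order of levels, knockout microglia, normal microglia (53946 ± 10691, SD, n = 3) and wild-type 5xFAD microglia did not differ between neighbours (adjusted p = 0.701 and 0.413). Wild-type 5xFAD microglia and knockout donor cells did (1.51e-05), as did knockout and wild-type donor cells.

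P2ry12 was also 2.03-fold higher in knockout than in wild-type donor cells, a log2 difference of wild-type minus knockout of -1.03 (SE 0.18, limma adjusted p = 0.00552). Without S30 and S31, the wild-type donor libraries nearest to each other, the difference was -0.88 and the call was lost (adjusted p = 0.130), and with the closest pairs averaged it was -0.98 (adjusted p = 0.0574). In 5xFAD microglia the Trem2 difference of P2ry12 was -0.50 (95% interval -0.93 to -0.065, adjusted p = 0.170). Without S26 it was -0.67 and called (adjusted p = 0.0204). The 2 Trem2 differences were not shown to differ from each other (interaction -0.54, SE 0.27, adjusted p = 0.304). Platelets also carry P2ry12, and of 6 tested genes of a platelet list 1 was higher and 2 lower in the wild-type contrast (median -2.0), and 1 higher and 4 lower in the knockout contrast (median -3.13). The 9 listed genes in the table, of 10, summed to 1032 to 2199 in microglia, 3419 to 5695 in wild-type donor cells and 2476 to 3838 in knockout donor cells. Most of the sum in donor cells was Pf4 (3358 to 5659 and 2444 to 3702, against 454 to 1426 in microglia). Gp9, a platelet receptor subunit, went the other way, from 718 to 847 in normal microglia to 15.9 to 29.1 in wild-type donor cells. Of the list 2 to 4 genes were at 10 or more in every library of a group, and Gp1bb was at 0 in every group but wild-type 5xFAD microglia. Their part in P2ry12 was not tested.

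P2ry13, the neighbouring Gi-coupled ADP receptor, followed the same order of groups within transplanted cells but over a narrower range. Normal microglia held 46551, 49735 and 41307 normalized counts (S20, S21, S36). Wild-type 5xFAD microglia held 33792, 32466 and 32739 (S22 to S24), all below normal microglia. Knockout 5xFAD microglia held 39039, 37517 and 38454 (S25 to S27), which lay between the other microglia groups without overlap. Wild-type donor cells held 19430, 15479, 16961 and 16934 (S28 to S31), and knockout donor cells held 25522, 23144, 27266 and 25259 (S32 to S35). No 2 of the 5 groups overlapped for P2ry13.

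P2ry13 fell by 0.94 on the log2 scale in wild-type donor cells against wild-type microglia (SE 0.10, limma adjusted p = 1.55e-06), from 32999 ± 700 (SD, n = 3) to 17201 ± 1639 (SD, n = 4). It fell by 0.60 in knockout donor cells (25298 ± 1689, SD, n = 4) against knockout microglia (38337 ± 768, SD, n = 3; SE 0.10, limma adjusted p = 0.000291). Between donor genotypes it was 1.47-fold higher in knockout cells, a wild-type minus knockout difference of -0.56 (SE 0.10, limma adjusted p = 0.00572), which also lost its call without S30 and S31 (-0.54, adjusted p = 0.0805) and with the closest pairs averaged (-0.55, adjusted p = 0.0615). P2ry13 was the gene of the 6 called between wild-type 5xFAD and normal microglia (45864 ± 4256, SD, n = 3), where it fell by 0.47 (SE 0.11, limma adjusted p = 0.0203). That call was lost without S20, S21, S22, S23 or S24, each alone (differences -0.49 to -0.41, adjusted p = 0.0652 to 0.103), and with the closest pairs averaged (adjusted p = 0.126). Knockout 5xFAD microglia were -0.25 from normal microglia (SE 0.11, adjusted p = 0.147), and wild-type minus knockout microglia was -0.22 (adjusted p = 0.265). The library kit does not mark strand, and both ADP receptor genes lie within Med12l on the opposite strand, so reads where they overlap cannot be told apart. Med12l was itself at 380 ± 27.8 (SD, n = 3) in normal microglia and 69.1 ± 20.4 (SD, n = 4) in wild-type donor cells, and its part in the 2 receptors was not tested.

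The ratio of P2ry12 to P2ry13 within a library does not depend on the size factor. It was 1.18 ± 0.193 in normal microglia, 1.26 ± 0.143 in wild-type 5xFAD microglia and 1.54 ± 0.281 in knockout 5xFAD microglia (SD, n = 3 each). It was 0.440 ± 0.0681 in wild-type and 0.610 ± 0.0791 in knockout donor cells (SD, n = 4 each). The ratio was under 1 in every transplanted library and above 1 in 8 of 9 microglia libraries, S20 being the exception at 0.957. The donor groups did not overlap (0.388 to 0.540 against 0.547 to 0.726), with a two-sided exact permutation p of 0.0286, the smallest that 4 against 4 allows, and 0.0952 after adjustment over 10 ratio tests. Transplanted cells against microglia gave an exact permutation p of 0.0571 for each genotype, the smallest that 4 against 3 allows, so this design could not reach 0.05.

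**Figure D2:**
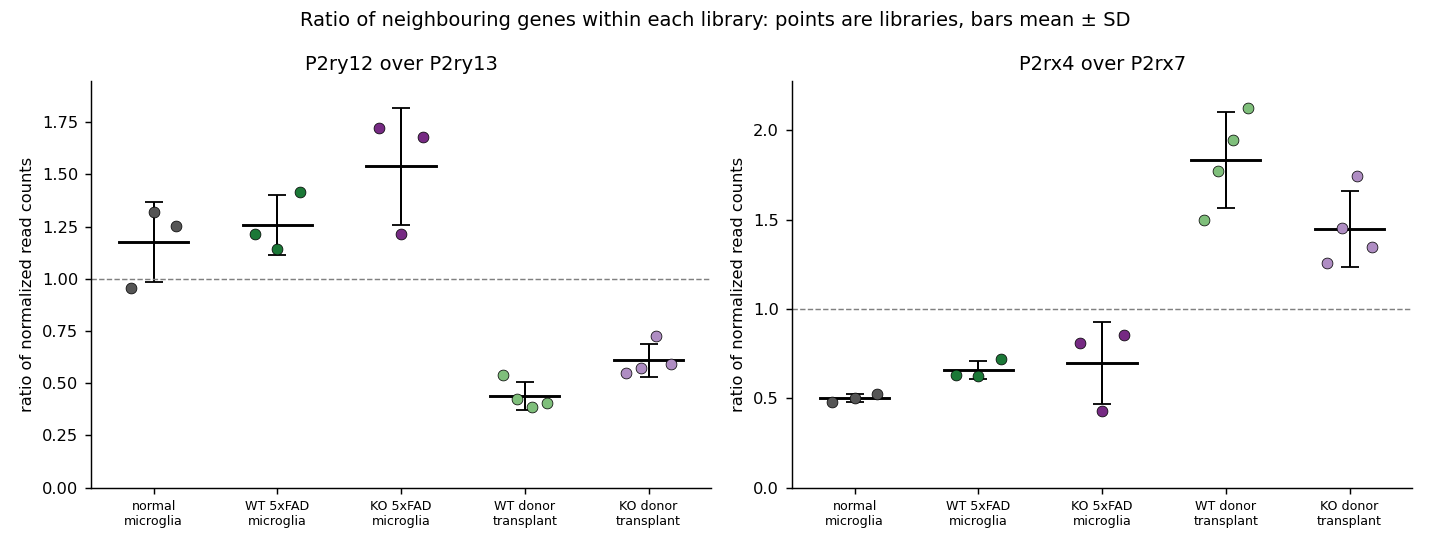
Ratio of normalized read counts of P2ry12 over P2ry13 (left) and P2rx4 over P2rx7 (right) in each library by group; points are libraries, bars are mean ± SD and the dashed line is a ratio of 1. The first ratio is at or below 0.726 in all transplanted libraries, and the other is at or below 0.855 in all microglia libraries and at or above 1.25 in all transplanted ones.

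P2ry6, the UDP receptor linked to phagocytosis, overlapped between microglia and transplanted cells. Normal microglia held 11951, 10243 and 9290 normalized counts (S20, S21, S36), and wild-type 5xFAD microglia held 8263, 8473 and 7836 (S22 to S24). Knockout 5xFAD microglia held 5477, 9757 and 5836 (S25 to S27). Within that group S26 was at the level of normal microglia and the other libraries were the lowest of all 17. Wild-type donor cells held 10470, 9466, 9758 and 10120 (S28 to S31), and knockout donor cells held 9858, 10192, 7660 and 10144 (S32 to S35). The donor groups overlapped each other and normal microglia.

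No neighbours in the order of P2ry6 levels differed (adjusted p = 0.360 to 0.788). Between donor genotypes the log2 difference was 0.082 with a 95% interval of -0.23 to 0.40 (limma adjusted p = 0.747). Wild-type 5xFAD microglia were -0.35 from normal microglia (limma adjusted p = 0.331). Wild-type donor cells (9953 ± 436, SD, n = 4) against wild-type 5xFAD microglia (8191 ± 325, SD, n = 3) gave 0.28 (adjusted p = 0.209). In both of these comparisons the libraries of the compared groups did not overlap. A limma fit of the compared groups only called both differences (adjusted p = 0.0225 and 0.0133). Knockout donor cells (9463 ± 1211, SD, n = 4) rose by 0.47 against knockout microglia (7024 ± 2374, SD, n = 3; SE 0.16, limma adjusted p = 0.0394), and wild-type donor cells rose by 0.55 against them (SE 0.16, limma adjusted p = 0.0136). These calls turn on S25 and S27. Without both, the difference was -0.054 (adjusted p = 0.855) for knockout and 0.028 (adjusted p = 0.933) for wild-type donor cells, and the remaining S26 is then assumed to vary like the other groups. Without S25 alone the knockout and wild-type donor differences were 0.32 and 0.40 (adjusted p = 0.229 and 0.102), and without S27 alone they were 0.36 and 0.44 (adjusted p = 0.187 and 0.0806). The knockout donor call was also lost without S32, S33 or S35 (0.43 to 0.45, adjusted p = 0.0831 to 0.0987). The same happened by edgeR (0.0618), with the compared groups only (0.176) and with the closest pairs averaged (0.263). The wild-type donor call was lost with the compared groups only (0.0660), with the closest pairs averaged (0.165) and without S30 and S31 (0.0631). Knockout 5xFAD against normal microglia (10495 ± 1349, SD, n = 3) was at -0.62 (SE 0.17, limma adjusted p = 0.0504), which DESeq2 called (adjusted p = 0.0255), as did limma with TMM scaling (0.0477), with a pseudocount of 5 (0.0478) and without S26 (-0.88, adjusted p = 0.000133). Wild-type minus knockout microglia was 0.27 (adjusted p = 0.360), but 0.53 and called without S26 (adjusted p = 0.00580) and -0.25 without S25 and S27. Both fits without S26 rest on S25 and S27 as the knockout microglia, the near pair that may share an animal.

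P2rx4, the ATP-gated channel, was the member that was higher in transplanted cells for both genotypes. Normal microglia held 3215, 2751 and 3139 normalized counts (S20, S21, S36), wild-type 5xFAD microglia held 3584, 3534 and 3583 (S22 to S24) and knockout 5xFAD microglia held 2768, 2621 and 2647 (S25 to S27). Wild-type 5xFAD microglia lay above both other microglia groups. Wild-type donor cells held 8145, 9225, 8937 and 9406 (S28 to S31), and knockout donor cells held 8567, 7491, 7727 and 8268 (S32 to S35). Every transplanted library was above every microglia library, and the donor groups overlapped.

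P2rx4 was 2.5-fold higher in wild-type donor cells (8928 ± 557, SD, n = 4) than in wild-type 5xFAD microglia (3567 ± 28.3, SD, n = 3), a rise of 1.32 on the log2 scale (SE 0.09, limma adjusted p = 2.94e-09). The spread of that microglia group (0.792% of its mean) was smaller than the counting error of its values (1.35 to 1.66%), the single case among the 30 pairs of gene and group. In knockout cells it was 2.99-fold higher (8013 ± 492, SD, n = 4, against 2679 ± 78.1, SD, n = 3), a rise of 1.58 (SE 0.09, limma adjusted p = 5.11e-10). The donor genotypes differed by 0.16 with a 95% interval of -0.020 to 0.33 (adjusted p = 0.239). P2rx4 was the gene of the 6 called by Trem2 in microglia, 1.33-fold higher in wild-type than in knockout cells (log2 difference 0.41, SE 0.10, limma adjusted p = 0.0173). That call was lost without S22, S23, S24 or S27, each alone (0.41 to 0.42, adjusted p = 0.0629 to 0.0724), with a fit of the compared groups only (adjusted p = 0.103), with the closest pairs averaged (0.201) and without S25 and S27 together (0.44, 0.128). Wild-type 5xFAD and knockout 5xFAD microglia were 0.24 and -0.18 from normal microglia (3035 ± 249, SD, n = 3; adjusted p = 0.221 and 0.231).

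P2rx7, the channel upstream of the inflammasome and neighbour of P2rx4, was not called in any of the comparisons. Normal microglia held 6704, 5512 and 5981 normalized counts (S20, S21, S36), wild-type 5xFAD microglia held 5662, 5651 and 4983 (S22 to S24) and knockout 5xFAD microglia held 3431, 6078 and 3097 (S25 to S27). As with P2ry6, S26 sat with the normal libraries, and S25 and S27 were the lowest of all 17. Wild-type donor cells held 5449, 5207, 4598 and 4425 (S28 to S31), and knockout donor cells held 6827, 5151, 4431 and 6152 (S32 to S35). Donor groups and wild-type microglia overlapped.

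For P2rx7 the donor genotypes differed by -0.18 with a 95% interval of -0.55 to 0.18 (limma adjusted p = 0.512), and wild-type donor cells (4920 ± 487, SD, n = 4) were -0.15 from wild-type 5xFAD microglia (5432 ± 389, SD, n = 3; interval -0.54 to 0.25, adjusted p = 0.603). Knockout donor cells (5640 ± 1060, SD, n = 4) were 0.47 from knockout 5xFAD microglia (4202 ± 1633, SD, n = 3; adjusted p = 0.0752). Without S26 that difference was 0.77 and called (adjusted p = 0.000542), without S34 it was 0.58 and called (adjusted p = 0.0294), and without S25 and S27 it turned to -0.13. Wild-type minus knockout microglia was 0.43 (adjusted p = 0.214), 0.73 without S26 (adjusted p = 0.00270) and -0.16 without S25 and S27. Knockout against normal microglia (6066 in the mean) was -0.59 (adjusted p = 0.0831), but -0.89 and called without S26 (adjusted p = 0.000450). The neutrophil list had 12 of its 13 genes in the table, all 12 at 10 or more in each knockout microglia library. It summed to 126452 in S25, 55197 in S26 and 136345 in S27. The sums were 15322 to 18053 in wild-type 5xFAD and 19528 to 32285 in normal microglia. Most of the wild-type 5xFAD sum was Csf3r (11125 to 12883), which was at 6698, 11101 and 7184 in S25, S26 and S27. Of the 12 genes, 9 were lower and 0 higher in wild-type than in knockout 5xFAD microglia (median -4.21, 5.09% of all genes called). The classical monocyte list (10 genes) summed to 17609, 7184 and 18054 in S25, S26 and S27. Its sums were 1880 to 2068 in wild-type 5xFAD and 2477 to 3618 in normal microglia. The part of both lists in the values of P2ry6 and P2rx7 was not tested.

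The ratio of P2rx4 to P2rx7 was 0.501 ± 0.0227 in normal, 0.659 ± 0.0520 in wild-type 5xFAD and 0.698 ± 0.232 in knockout 5xFAD microglia (SD, n = 3 each). It was 1.83 ± 0.268 in wild-type and 1.45 ± 0.213 in knockout donor cells (SD, n = 4 each). The ratio was thus above 1 in all 8 transplanted libraries and under 1 in all 9 microglia libraries. Normal and wild-type 5xFAD microglia did not overlap, with an exact permutation p of 0.1, the smallest that 3 against 3 allows. The donor genotypes overlapped (two-sided exact permutation p = 0.0571, adjusted p = 0.0952 over the 10 ratio tests).

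Entpd1, the surface enzyme CD39 that ends ATP and ADP signals, was lower in transplanted cells, together with the ADP receptors. Normal microglia held 16919, 16809 and 17783 normalized counts (S20, S21, S36), wild-type 5xFAD microglia held 17941, 17113 and 13826 (S22 to S24) and knockout 5xFAD microglia held 13214, 15205 and 12338 (S25 to S27). S24 was apart from the other wild-type libraries and fell in the range of the knockout ones. Wild-type donor cells held 9059, 7345, 7714 and 8389 (S28 to S31), and knockout donor cells held 11378, 10293, 11131 and 10886 (S32 to S35). The donor groups did not overlap, and all transplanted libraries were below all microglia libraries.

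Entpd1 was 2.00-fold higher in wild-type 5xFAD microglia (16293 ± 2177, SD, n = 3) than in wild-type donor cells (8127 ± 757, SD, n = 4), a log2 difference of -0.999 (SE 0.11, limma adjusted p = 1.57e-06). The same contrast in knockout cells (13586 ± 1470, SD, n = 3, against 10922 ± 465, SD, n = 4) was -0.31 (SE 0.11, limma adjusted p = 0.0477), a call that was lost without any 1 of S25, S26, S32, S33, S34 or S35 (-0.33 to -0.23, adjusted p = 0.0518 to 0.120). It was also lost under TMM scaling (0.0627), edgeR (0.0542), a fit of the compared groups only (0.120) and with the closest pairs averaged (0.0840). Between donor genotypes Entpd1 was 1.34-fold higher in knockout cells (wild-type minus knockout -0.43, SE 0.10, limma adjusted p = 0.0247). This call was lost without S30 (-0.41, adjusted p = 0.0938), S31 (-0.45, 0.0705) or S34 (-0.42, 0.0633), without S30 and S31 together (0.222), in a fit of the compared groups only (0.0613) and with the closest pairs averaged (0.119).

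In microglia the Trem2 difference of Entpd1 had the other sign, 0.26 (SE 0.12, adjusted p = 0.210), and without S26 it was 0.34 and called (adjusted p = 0.0366). Knockout against normal microglia was -0.34 (adjusted p = 0.0861), called by DESeq2 (0.0451) and by limma without S26 (-0.43, 0.00964). Entpd1 was the gene of the 6 whose Trem2 difference was called as unequal in the 2 origins. The interaction was -0.69 (SE 0.16, limma adjusted p = 0.0215), where 2.82% of all genes were called and 0.87% were called in this direction. The call was lost without S22, S23, S25, S27 or S30, each alone (-0.67 to -0.61, adjusted p = 0.0502 to 0.0852), with the closest pairs averaged (-0.59, 0.300), without S25 and S27 (-0.52, 0.164) and without S30 and S31 (-0.68, 0.0896). Interactions of the other members were all negative (-0.62 to -0.19) and not called in the main fit (adjusted p = 0.221 to 0.710). Without S26 that of P2rx7 was -0.92 and called (limma adjusted p = 0.00584). Of the other purinergic genes 12 were then called for the interaction, against 3 in the main fit. Beside the comparison of donor genotypes, the oligodendrocyte list (8 genes, Cldn11 at 0 in all knockout donor libraries) summed to 7052, 11088, 23704 and 23984 in S28 to S31 and to 4528 to 6226 in knockout donor cells, and its part in these differences was not tested.

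**Figure D3:**
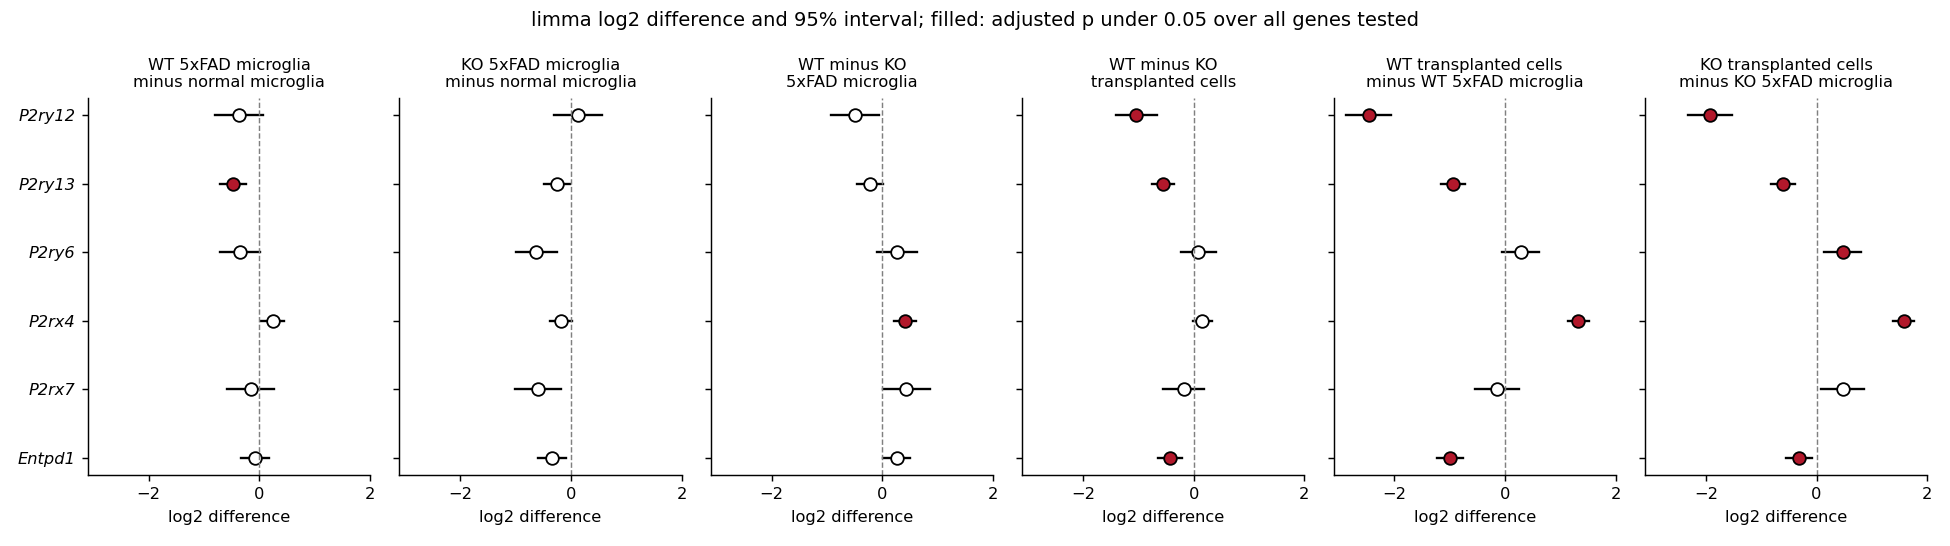
Differences on the log2(normalized count + 1) scale (horizontal axis) for each of the 6 genes in 6 comparisons, 1 panel each, with 95% intervals of the limma fit; filled points are those called at adjusted p under 0.05 over all tested genes. In the panels of transplanted cells against microglia P2ry12 lies furthest to the left (-2.47 and -1.93) and P2rx4 furthest to the right (1.32 and 1.58).

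Levels of different genes can be compared only per length of their exons. The length used was that of all annotated exons of a gene joined (2.546 kb for P2ry12, 7.025 kb for P2rx4). Which transcripts the cells made was not tested, so the order depends on the annotation. Per kilobase, normal microglia held 21189 normalized counts of P2ry12, 18143 of P2ry13, 3635 of P2ry6, 3077 of Entpd1, 1016 of P2rx7 and 432 of P2rx4 (means, n = 3). ADP receptors thus led the set in microglia. In wild-type donor cells the order per kilobase was P2ry13 (6804), P2ry6 (3448), P2ry12 (2999), Entpd1 (1456), P2rx4 (1271) and P2rx7 (824; means, n = 4). P2ry13 led there, and P2rx4 had passed P2rx7. In knockout donor cells P2ry12 (6093) was still above P2ry6 (3278).

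Over the 17 libraries, the genes whose log2 values ran closest to each member were found among 6031 genes of at least median level, by Pearson's r. The points share their groups, so r mostly reflects the step between microglia and transplanted cells and is a description only. P2ry12 was closest to Tlr3 (r = 0.989), a sensor of double-stranded RNA, and to Slmap (0.976), and P2ry13 to Cd164 (0.970) and to P2ry12 itself (0.964). P2rx4 was closest to Rtcb (0.995), the tRNA ligase, and to Il2rg (0.991), the common cytokine receptor chain. Entpd1 was closest to Fchsd2 (0.967) and Cd164 (0.955). P2ry6 was closest to Tor4a (0.959) and P2rx7 to Txndc11 (0.971). P2ry6 and P2rx7 ran with each other at 0.802 and with P2ry12 at -0.46 and -0.11.

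The rest of the purinergic system was taken from lists of 59 other genes, of which 50 were tested. In wild-type donor cells against wild-type 5xFAD microglia 13 rose and 10 fell, 46% of the 50 against 28.2% of all tested genes (median -0.014 against -0.026). In knockout donor cells against knockout microglia 11 rose and 13 fell, 48% against 25.4% (median 0.079 against -0.022). Among 11 other receptors, 3 rose and 4 fell in the wild-type contrast (63.6% called, against the same 28.2%) and 2 rose and 4 fell in the knockout contrast (54.5% against 25.4%). Adora3, an adenosine receptor of microglia, fell by 3.75 (SE 0.22, limma adjusted p = 4.37e-10) in the first and fell by 3.37 (adjusted p = 2.61e-09) in the other. Gpr34, a lysophosphatidylserine receptor that is also on the microglia list, fell by 2.06 in wild-type donor cells against knockout microglia (adjusted p = 2.87e-06). P2ry14, the receptor for UDP-sugars, rose by 2.60 in knockout donor cells against knockout microglia (SE 0.40, adjusted p = 8.74e-05). It reached 340 ± 107 normalized counts (SD, n = 4) there. Low-level P2ry1, another ADP receptor, rose by 3.04 in wild-type donor cells to 49.5 ± 52.9 (SD, n = 4; adjusted p = 0.00388). That mean rests on S29 at 128.5 normalized counts, against 17.9, 22.3 and 29.3 in S28, S30 and S31. Without S29 the rise was 2.42 (adjusted p = 0.0140), and without S22, the microglia library at 0, it was 1.96 (adjusted p = 0.0338).

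Among 14 enzymes of nucleotides and adenosine, 7 rose and none fell in wild-type donor cells against wild-type 5xFAD microglia, 50% called against 28.2% of all genes (median 0.37 against -0.026). In the knockout contrast 6 rose and 4 fell, 71.4% against 25.4% (median 0.33 against -0.022). Nt5e, the CD73 that acts after CD39, rose by 5.67 in the wild-type contrast (SE 0.68, limma adjusted p = 4.05e-06), from 2.72 ± 2.61 (SD, n = 3) to 154 ± 49.7 (SD, n = 4) normalized counts. Ada, which deaminates adenosine, rose by 1.96 (SE 0.23, adjusted p = 3.15e-06) to 177 ± 12.9 (SD, n = 4). T and NK cells also carry such enzymes, and of the 11 tested genes of their marker list (12 in all) 9 were higher and none lower in this contrast (median 3.24). The list summed to 202 to 346 in wild-type 5xFAD microglia and 405 to 3537 in wild-type donor cells, with 4 and 8 of its genes at 10 or more in every library and none at 0 throughout a group. Its part in Nt5e and Ada was not tested. Enpp2, which makes lysophosphatidic acid, was 4.81 higher in wild-type than in knockout donor cells (SE 0.86, adjusted p = 0.00664). Its values were 1272, 5179, 4343 and 4435 in S28 to S31 and 51.2, 110, 30.9 and 1113 in the knockout donor libraries. Enpp2 is also an oligodendrocyte gene, and the oligodendrocyte list differed between these groups as given above. That call was lost without S30 and S31 (4.42, adjusted p = 0.140) and with the closest pairs averaged (4.68, adjusted p = 0.0630).

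In the list for release and uptake of nucleotides and nucleosides, 2 of 8 tested genes rose and 2 fell in each of the 2 contrasts (50% called, against 28.2 and 25.4% of all genes). Slc28a2, a nucleoside importer, rose by 3.03 (SE 0.33, limma adjusted p = 1.45e-06) and by 1.22 (adjusted p = 0.0111). Gja1, the connexin 43 hemichannel gene and also an astrocyte marker, was called as lower at -3.33 and -3.09 in these contrasts (adjusted p = 3.65e-05 and 9.51e-05). The astrocyte list (8 genes, Gja1 among them) summed to 585 to 1149 in transplanted libraries and 4426 to 8033 in microglia. Most of the microglia sum was Slc1a3 (3241 to 4930, against 122 to 326 in transplanted libraries). Of the 8 genes, 3 were lower in the wild-type contrast and 8 in the knockout contrast, with 0 higher in each. The part of astrocytes in Gja1 was not tested. Downstream of P2X7, 1 of 9 genes rose and 3 fell in the wild-type contrast (44.4% against 28.2%), and 1 rose and 2 fell in the knockout contrast (33.3% against 25.4%). Il1b, the cytokine released after P2X7 opening, rose by 2.14 in wild-type donor cells (SE 0.33, adjusted p = 7.22e-05). It was also 1.85 higher in wild-type than in knockout donor cells (adjusted p = 0.00476), 5196 ± 1992 against 1387 ± 423 (SD, n = 4 each). Without S30 and S31 that difference was 1.39 (adjusted p = 0.128), and with the closest pairs averaged it was 1.70 (adjusted p = 0.0561). Pycard, the inflammasome adaptor ASC, fell by 1.20 in knockout donor cells (SE 0.12, adjusted p = 9.11e-07). Of 8 genes downstream of P2Y12 and P2Y6, none rose and 1 fell in each contrast, 12.5% called and so below the share of all genes (28.2 and 25.4%). These were Itgb1, the integrin beta 1 subunit (-0.33, adjusted p = 0.0247), in the wild-type contrast and Plcb2, a phospholipase C (-0.46, adjusted p = 0.0411), in the knockout contrast. The Plcb2 call was lost without S25, S26, S32, S34 or S35 (-0.48 to -0.33, adjusted p = 0.0563 to 0.130), with the compared groups only (0.180) and with the closest pairs averaged (0.0529). The Itgb1 call was lost without S22, S23, S24, S30 or S31 (-0.36 to -0.28, adjusted p = 0.0517 to 0.0899), without S30 and S31 together (0.244) and with the closest pairs averaged (0.151).

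Within microglia and between donor genotypes 1 to 6 of these 50 genes were called. Wild-type 5xFAD against normal microglia gave 3 higher and 1 lower (8% of the 50 against 3.78% of all genes), and 2 in all without S20, S23 or S24, each alone. Tmem163, a zinc transporter that binds P2X receptors, rose by 5.66 (SE 0.84, limma adjusted p = 0.000376) to 259 ± 3.80 (SD, n = 3), and Adora1, an adenosine receptor, rose by 1.83 (SE 0.39, adjusted p = 0.0105), a call lost without S20 or S36 (1.68 and 1.64, adjusted p = 0.0609 and 0.0619) and with the closest pairs averaged (0.0529). Tmem163 was also 4.27 higher in wild-type than in knockout 5xFAD microglia (adjusted p = 0.00464), a call lost in a fit of the compared groups only (0.0568). That comparison gave 2 higher and 4 lower (12% against 5.09%), but 19 in all without S26, 3 without S23 and 2 without S25 or S27. Knockout 5xFAD against normal microglia gave Nlrp3, the inflammasome sensor, which was -0.996 (SE 0.26, adjusted p = 0.0420), and no other (2% against 3.91%), but 27 without S26 and 0 without S21, S25 or S27. Without S25 and S27 it was -0.11 (adjusted p = 1.0), and without S20, S21, S25, S27 or S36 alone it was -1.12 to -0.75 (adjusted p = 0.0839 to 0.266). The Nlrp3 call was also lost without the filter (0.0536), by edgeR (0.0736), with the compared groups only (0.235) and with the closest pairs averaged (0.368). Between donor genotypes 2 were higher (Enpp2 and Il1b) and 2 lower, Enpp4 (-0.62, adjusted p = 0.0278) and Itgb1 (-0.35, adjusted p = 0.0414), 8% against 6.74% of all genes. Without S28 10 were called, and without S30, S31 or S34, each alone, 2. The Enpp4 call was lost without S30, S31 or S34 (-0.56 to -0.48, adjusted p = 0.0839 to 0.111) and that of Itgb1 without S30, S31, S33, S34 or S35 (-0.38 to -0.26, adjusted p = 0.0539 to 0.151). Both were also lost with the compared groups only (0.0829 and 0.113), with the closest pairs averaged (0.149 and 0.191) and without S30 and S31 (0.400 and 0.454).

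**Figure D4:**
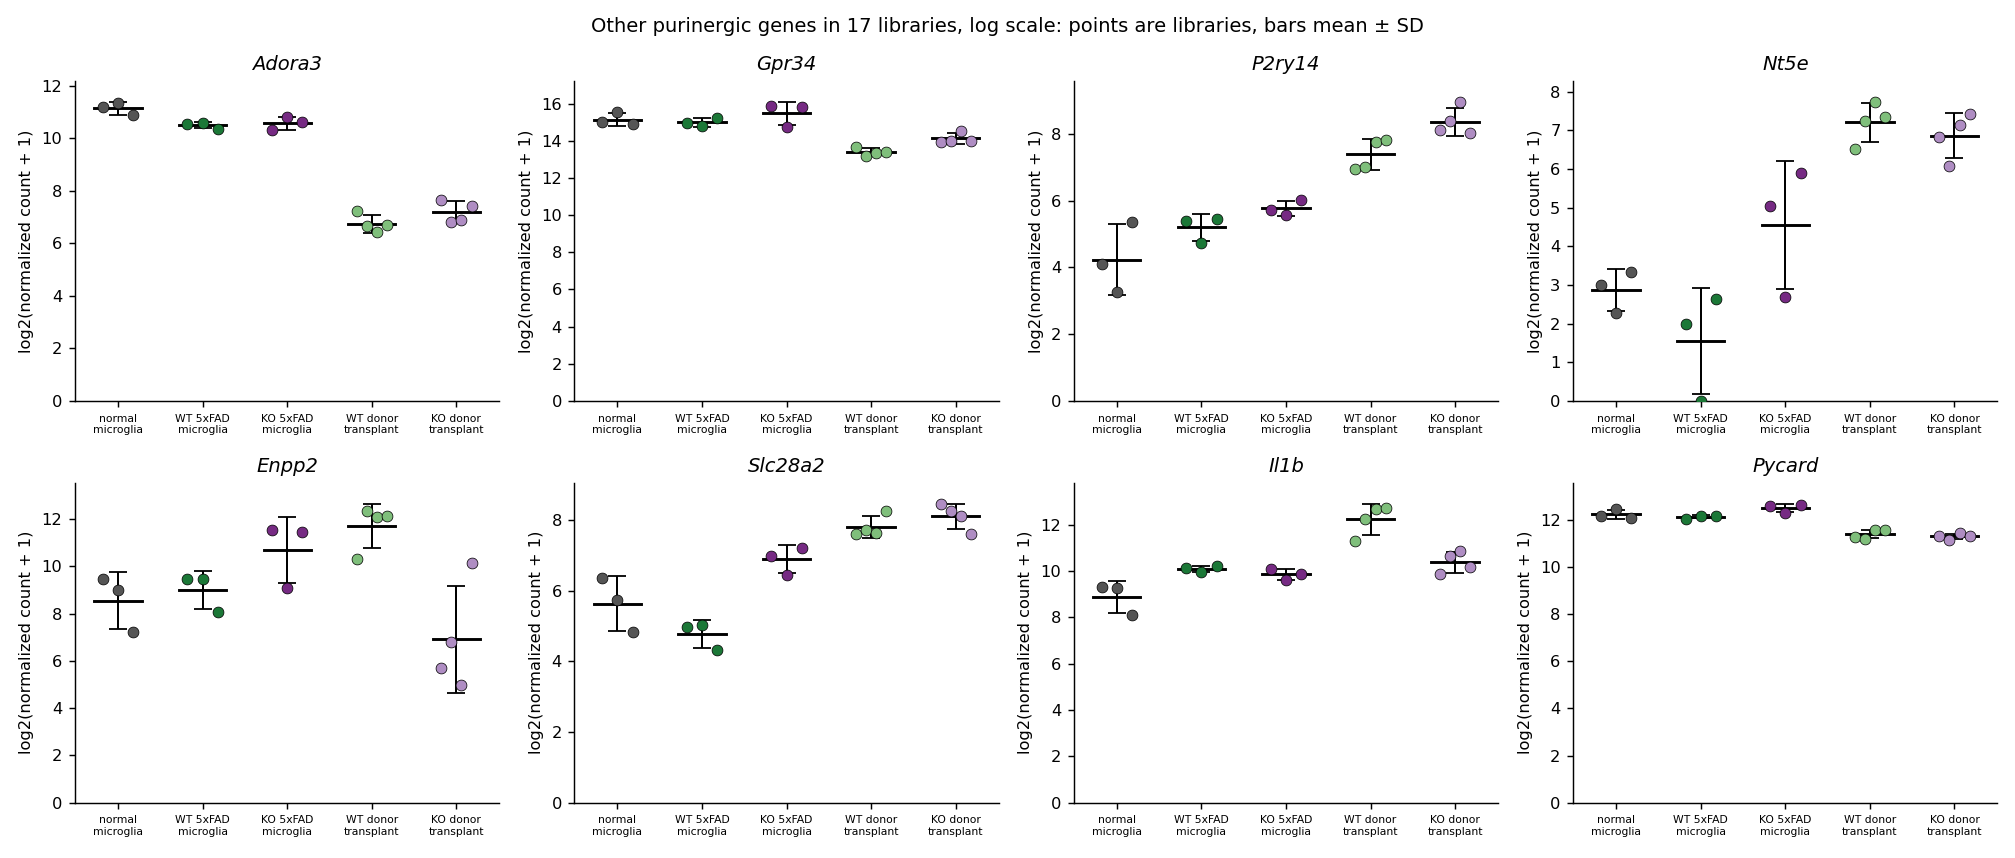
Level on the log2(normalized count + 1) scale (vertical axis) of Adora3, Gpr34, P2ry14, Nt5e, Enpp2, Slc28a2, Il1b and Pycard in each of 17 libraries by group; points are libraries and bars are mean ± SD. Adora3 is lower and Nt5e and Slc28a2 are higher in every transplanted library than in every microglia library.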

How the data were processed

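Living CD45+CD11b+ brain cells of 17 samples were sorted and sequenced with the SMART-Seq v4 kit on a NovaSeq, per the labels' protocols. The authors deposited 1 normalized signal per gene and library, and per the submitters' processing notes their tools were STAR 2.5.2b, DESeq2 (3.17), RSEM, HTSeq and bcl2fastq with mm10 and GRCm38.p6. What each tool did, the annotation and any filter are not stated there. The deposited signal is a read count over 1 size factor per library, since 100% of the lower values were whole multiples of 1 step within 0.02, except that S20, whose step is near 1, could not be checked. Groups came from sample titles and column names.

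Values were analysed as log2(value + 1) for 12074 genes with 10 or more in at least 3 libraries, with limma 3.58.1 (lmFit, eBayes with trend, R 4.3.3) on all libraries and Benjamini-Hochberg adjustment over all genes. edgeR 4.0.16 and DESeq2 1.42.0 on the recovered reads, other pseudocounts and filters, TMM scaling, fits of the compared groups and libraries left out were alternatives. Those that leave out S25 with S27 or S30 with S31 were added after seeing the data. The procedure was tested on simulated data. The 6 genes, the pathway lists and the markers were chosen with earlier results of these data known. Other pathway genes were named from the up to 3 called genes per list and comparison with the largest differences. Genes nearest to a member were the 3 with the highest Pearson's r. Promoters of 5 of the 6 genes were found in the RefSeq table. No reads were realigned.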

Additional observations from a re-analysis of the deposited data

Results flagged for a closer look

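Of 12 groups of 4 libraries examined for a value apart from the rest (the 6 genes in both donor groups), 2 held one, and chance marks about 1 group in 20. The groups come from the same 8 libraries and are not independent. P2ry12 was at 10483 normalized counts in S28, above the other wild-type donor libraries (6576 to 6899). P2ry6 was at 7660 in S34, below the other knockout donor libraries (9858 to 10192).

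The Trem2 difference was unequal in transplanted cells and microglia, by the interaction test of the main fit, for 4 of the genes named. Donor groups differed in Trem2 of the donor only, in hosts that all lacked it, whereas microglia groups came from mice differing in Trem2. Cell origin, treatment and host genotype therefore cannot be told apart in this test. For Entpd1 it was -0.43 in transplanted cells and 0.26 in microglia, an interaction of -0.69 (limma adjusted p = 0.0215). For Enpp2 the interaction was 6.50 (adjusted p = 0.00989), for Slc28a2 1.81 (adjusted p = 0.0465) and for Tmem163 -4.19 (adjusted p = 0.0492). The calls of Slc28a2 and Tmem163 were lost under most alternatives, and that of Entpd1 under those given above. For Enpp2 the difference between donor genotypes lost its call without S30 and S31, as given above. The cause was not tested.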

How the results depend on the processing

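Of 1080 member differences recomputed, 992 kept direction and side of the threshold, 56 lost the call, 18 gained one and 14 changed sign, and the cause was not tested. The number of the 6 genes called moved as follows. Wild-type 5xFAD against normal microglia gave 1, but 2 with the compared groups only, 0 with the closest pairs averaged and 0 to 1 with a library left out. Knockout 5xFAD against normal microglia gave 0, but 1 at pseudocount 5, 1 under TMM, 2 by DESeq2 and 0 to 3 with a library left out. Trem2 in microglia gave 1, but 0 with the compared groups only, 0 with pairs averaged, 0 without S25 and S27 and 0 to 5 with a library left out. Trem2 in donor cells gave 3, but 0 with pairs averaged, 0 without S30 and S31 and 2 to 3 with a library left out. Knockout donor cells against knockout microglia gave 5, but 3 with the compared groups only, 3 with pairs averaged, 3 by edgeR and 3 to 5 with a library left out. The interaction gave 1, but 0 with pairs averaged, 0 without S25 and S27, 0 without S30 and S31 and 0 to 2 with a library left out. Wild-type donor cells against wild-type and against knockout microglia gave 4 and 5, with 4 to 5 and 4 to 6 over the alternatives.

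Without S25 and S27, signs changed for P2ry12 (-0.22) and P2rx7 (0.0075) in knockout against normal microglia, P2ry6 (-0.25) and P2rx7 (-0.16) for Trem2 in microglia, P2ry6 (-0.054), P2rx7 (-0.13) and Nlrp3 (-0.22) in knockout donor cells against knockout microglia, P2rx7 (-0.31) in wild-type donor cells against knockout microglia and P2ry6 (0.33) in the interaction. Entpd1 in wild-type 5xFAD against normal microglia was 0.030 without S24 (lowest -0.16), P2ry6 between donors -0.017 without S34 (highest 0.12), P2rx7 in knockout donor cells against wild-type microglia -0.061, -0.011 and -0.024 without S32, S35 and S24 (highest 0.15), and P2ry6 in wild-type donor cells against normal microglia 0.028 without S20 (lowest -0.15). Genes called in all were 457 (242 to 1829 over alternatives), 472 (2 to 4601), 615 (167 to 3673), 814 (15 to 1886), 3399 (2001 to 3919), 3062 (1999 to 4516), 4238 (2109 to 5874) and 341 (75 to 1666) for 5xFAD, knockout 5xFAD, Trem2 in microglia, Trem2 in donor cells, wild-type donor cells against wild-type microglia, knockout donor cells against knockout microglia, wild-type donor cells against knockout microglia and the interaction, in that order. No paired analysis was possible because columns outside the normal group carry no replicate number.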
